A study of Mus musculus with 6 samples.

Results

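The 10 genes described here encode proteins of the Z-disc, of the stress response of titin and of the thick filament in skeletal muscle: Actn2, Actn3, Myoz1, Myoz2, Csrp3, Xirp1, Ankrd1, Ankrd2, Mybpc1 and Mybpc2. They were taken by symbol from a count table of 47967 genes, each matched 1 row, and all 10 were among the 15347 genes with enough counts to be tested. The muscle sequenced was the gastrocnemius of the calf, from C57BL/6 males 20 to 24 weeks old. For 12 weeks the mice ate chow with normal phosphate, of which 0.6% of the feed was inorganic and 0.9% in total, or with high phosphate, at 2.0% and 2.3%, and each diet has 3 libraries. The feeds shared their magnesium (0.3%), calcium (1.9%), potassium (1.8%) and sodium (0.9%) content. Nothing in the labels ties a library to its own animal. The spread that p-values are set against may therefore be technical.

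The Z-disc is the plate at the end of each sarcomere, where alpha-actinin crosslinks the barbed ends of actin filaments and anchors titin. Proteins docked on it, such as the calsarcins and muscle LIM protein, tie the lattice to calcineurin signalling and to the load titin bears. The muscle ankyrin repeat proteins bind titin in the I-band, and the myosin-binding proteins C sit on the thick filament and tune its cross-bridges. Several of these families have a form typical of fast fibres and a form typical of slow fibres, and the gastrocnemius of the mouse is mostly fast.

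Actn3, Mybpc2, Myoz1 and Xirp1 were higher on the high phosphate diet, by 1.95- to 3.57-fold, and no member of the group was lower by the same test. In the quasi-likelihood test of edgeR, with p adjusted by Benjamini-Hochberg and called under 0.05, 4 of 10 rose and 0 fell. Of all genes tested 49.3% were called, 23.0% higher and 26.3% lower. In those same 4 genes all libraries of the high phosphate diet lay above all of the normal phosphate diet, as they did in 30.3% of genes (below in 32.1%), and in the other 6 members the diets overlapped. The median log2 fold change was 0.40 over the 10 genes and -0.016 over all genes tested. At an unadjusted p under 0.05 edgeR also had 0 members lower. DESeq2 called 5 higher and 0 lower, against 48.7% of all genes called, 23.9% higher and 24.8% lower. Levels are in CPM, counts set to a common library total, scaled by the trimmed mean of M values (TMM), given for replicates 1, 2 and 3 in that order, and a log2 fold change is high over normal phosphate, ± SE. In bulk muscle, fewer cells of a type and less RNA per cell cannot be told apart.

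The libraries held 21856006 to 27474251 gene counts. The first principal component took 77.3% of the variance, and on it normal phosphate replicate 2 (-75.4) lay apart from replicates 1 (-36.5) and 3 (-43.8), whereas the high phosphate libraries lay between 51.1 and 53.0. TMM factors were 1.1 to 1.29 on the normal and 0.795 to 0.882 on the high phosphate diet, so directions are relative to a typical gene. With library size alone the median of all genes moved to -0.49, with 57.1% called, 5.72% higher and 51.4% lower.

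**Figure D1:**
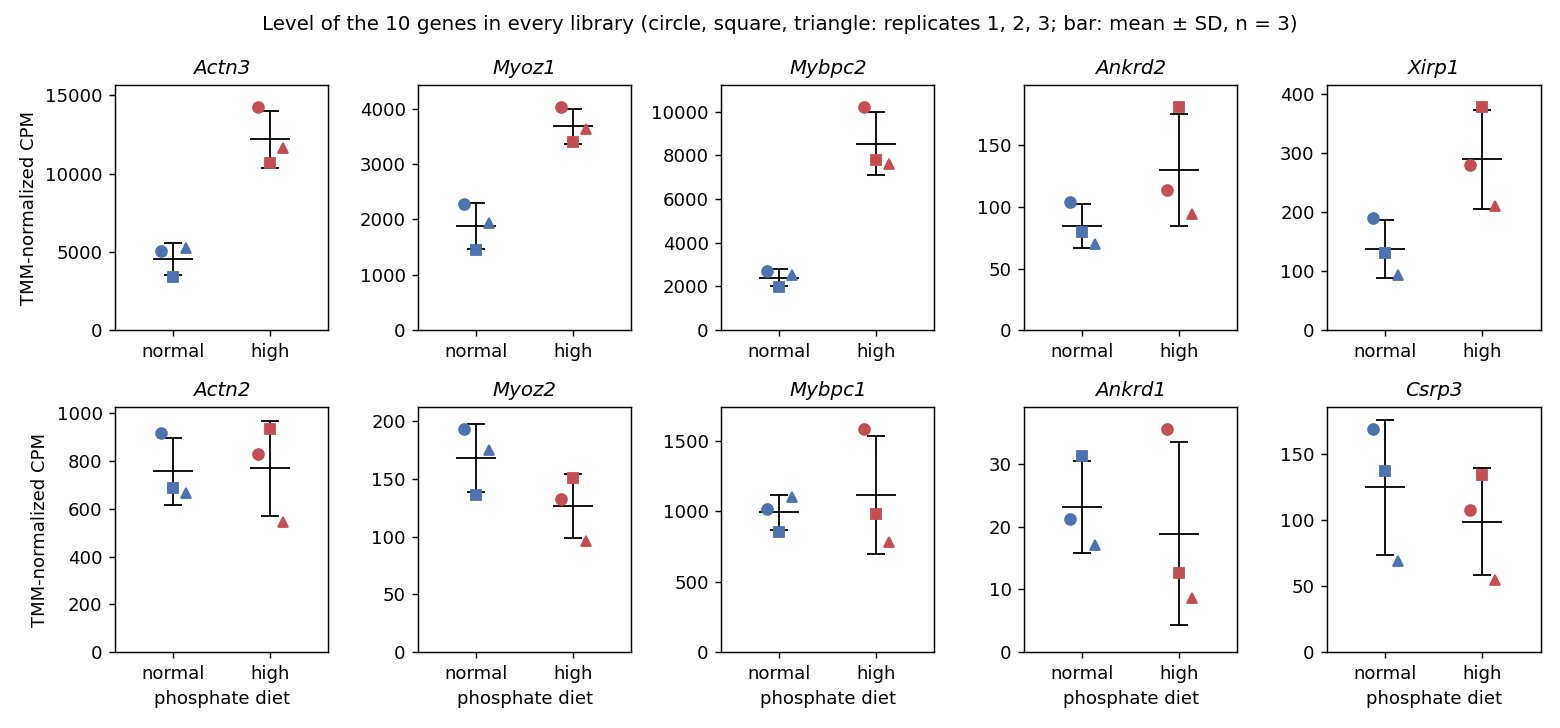
TMM-normalized CPM of the 10 genes in the 3 normal and 3 high phosphate libraries, with the y axis of each panel starting at 0; circles, squares and triangles are replicates 1, 2 and 3 and bars are mean ± SD. Actn3, Myoz1, Mybpc2 and Xirp1 have every high phosphate library above every normal phosphate library, and the points of the diets overlap in the other 6 panels.

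The alpha-actinins crosslink actin at the Z-disc. Actn3 is the form of fast glycolytic fibres, Actn2 the form found in all fibres and in heart. Actn3 (ENSMUSG00000006457, chromosome 19, 4861216 to 4877909, minus strand of GRCm38) was at 5035.7, 3387.8 and 5234.2 CPM on the normal phosphate diet and at 14248.4, 10715.0 and 11634.8 CPM on the high phosphate diet. The lowest high phosphate library was above the highest normal phosphate library. Its mean went from 4552.6 ± 1013.6 to 12199.4 ± 1833.1 CPM (SD, n = 3), a log2 fold change of 1.42 ± 0.25 or 2.68-fold (edgeR adjusted p = 0.0022). It took 0.435 to 0.604% of all counts on the normal and 0.932 to 1.13% on the high phosphate diet. Actn2 (ENSMUSG00000052374, chromosome 13, 12269426 to 12340760, minus strand) was at 918, 687 and 667 CPM on the normal and 829, 933 and 547 CPM on the high phosphate diet. The lowest and the highest of its 6 values were both on the high phosphate diet. It was not called (757 ± 140 and 769 ± 200 CPM, log2 fold change 0.02 ± 0.23, edgeR adjusted p = 0.942), and its sign turned with library size alone (-0.45). The transcripts of the actinins are distinct at the scale of a read: 0.0701% of the 50-base stretches of Actn3 occur in Actn2, and 0.0526% the other way round.

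The myozenins, or calsarcins, bind alpha-actinin, filamin and calcineurin at the Z-disc. Myoz1 is the form of fast fibres, Myoz2 the form of slow fibres and heart. Myoz1 (ENSMUSG00000068697, chromosome 14, 20649107 to 20656540, minus strand) was at 2277.5, 1442.0 and 1939.5 CPM on the normal and 4027.9, 3393.3 and 3629.7 CPM on the high phosphate diet. The diets did not overlap, and the high phosphate libraries were the closer together, with a coefficient of variation of 8.71% against 22.3%. It rose by 0.97 ± 0.22 on the log2 scale, or 1.95-fold (edgeR adjusted p = 0.0066). Myoz2 (ENSMUSG00000028116, chromosome 3, 123006206 to 123035015, minus strand) was at 193, 136 and 175 CPM on the normal and 133, 151 and 96.4 CPM on the high phosphate diet. Replicates 1 and 3 of the normal phosphate diet were above all high phosphate libraries and replicate 2 was not. Its log2 fold change was -0.41 ± 0.19 and it was not called (edgeR adjusted p = 0.103), but it was called lower without normal phosphate replicate 2 (-0.54, edgeR adjusted p = 0.0397) and with library size alone (-0.87, 0.0021). From the authors' FPKM, as log2(FPKM + 1), it was also called lower (-0.87, limma adjusted p = 0.0106). Adjusted p values over the libraries left out in turn ran from 0.0397 to 0.354.

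The myosin-binding proteins C lie in the C-zones of the thick filament. Mybpc2 is the fast skeletal form, Mybpc1 the slow skeletal form, which fast fibres also make. Mybpc2 (ENSMUSG00000038670, chromosome 7, 44501699 to 44524656, minus strand) was at 2687.9, 1955.9 and 2532.9 CPM on the normal and 10202.8, 7784.5 and 7619.5 CPM on the high phosphate diet. Every high phosphate library was far above every normal phosphate library. The rise of 1.84 ± 0.23 on the log2 scale, or 3.57-fold (edgeR adjusted p = 0.000678), was exceeded by 0.88% of the genes tested. Mybpc1 (ENSMUSG00000020061, chromosome 10, 88518279 to 88605152, minus strand) was at 1018.8, 855 and 1103.2 CPM on the normal and 1583.0, 983 and 783 CPM on the high phosphate diet. High phosphate replicate 1 was the highest and replicate 3 the lowest of all 6 libraries. The log2 fold change of 0.17 ± 0.26 was not called (edgeR adjusted p = 0.61), and it turned to -0.16 without high phosphate replicate 1 and to -0.32 with library size alone. Predicted genes on the opposite strand cover part of both: Gm48752 lies over 5.57% of the exonic bases of Mybpc1 and Gm44646 over 5.32% of those of Mybpc2. The strand setting of the counting is not given in the sources used here, so reads there cannot be told apart.

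Csrp3 encodes muscle LIM protein, a Z-disc protein of slow fibres and heart, and Xirp1 encodes Xin, an actin-binding repeat protein found at myotendinous junctions and in damaged fibres. Xirp1 (ENSMUSG00000079243, chromosome 9, 120013755 to 120023598, minus strand) was at 190, 131 and 92.8 CPM on the normal and 280, 377 and 210 CPM on the high phosphate diet. The diets did not overlap, although normal phosphate replicate 1 came close to high phosphate replicate 3. It rose by 1.07 ± 0.29 on the log2 scale, or 2.10-fold (edgeR adjusted p = 0.0167). The call was lost without normal phosphate replicate 2 (1.03, edgeR adjusted p = 0.107), with library size alone (0.60, 0.0916) and with no filter on low counts (1.08, 0.0593). As log2(FPKM + 1) it was not called either (0.61, limma adjusted p = 0.129). Csrp3 (ENSMUSG00000030470, chromosome 7, 48830398 to 48848033, minus strand) was at 169, 137 and 68.8 CPM on the normal and 108, 134 and 54.5 CPM on the high phosphate diet. Replicate 3 was the lowest library of each diet, and the coefficient of variation was 41.1% in both. The log2 fold change of -0.34 ± 0.42 was not called (edgeR adjusted p = 0.533).

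The muscle ankyrin repeat proteins bind the N2A segment of titin in the I-band and also enter the nucleus, and are known to be induced by stretch and injury. Ankrd2 is the main form of slow skeletal fibres, Ankrd1 (CARP) the main form of heart. Ankrd2 (ENSMUSG00000025172, chromosome 19, 42036000 to 42045110, plus strand) was at 104, 80.0 and 69.6 CPM on the normal and 114, 181 and 94.6 CPM on the high phosphate diet. Replicates 1 and 2 of the high phosphate diet were above every normal phosphate library, and replicate 3 was not. Its log2 fold change was 0.62 ± 0.25 (edgeR adjusted p = 0.0665). It passed the threshold without normal phosphate replicate 1 (0.80, edgeR adjusted p = 0.0459), without high phosphate replicate 3 (0.82, 0.0275) and with DESeq2 (0.64, adjusted p = 0.022), but was at 0.32 (edgeR adjusted p = 0.196) without high phosphate replicate 2. Ankrd1 (ENSMUSG00000024803, chromosome 19, 36111961 to 36120099, minus strand) was the lowest of the group, with 165 to 882 counts per library. It was at 21.2, 31.2 and 17 CPM on the normal and 35.5, 12.6 and 8.57 CPM on the high phosphate diet. High phosphate replicate 1 was the highest of all 6 libraries and the other two of that diet were the lowest. The log2 fold change of -0.29 ± 0.55 was not called (edgeR adjusted p = 0.691), and without high phosphate replicate 1 it was called lower at -1.12 (edgeR adjusted p = 0.0215). Over the libraries left out in turn it ran from -1.12 to 0.073.

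Within each library the counts of 2 related genes were divided, a ratio that does not depend on how libraries are scaled. In 3 of the 4 pairs the fast form stood over its relative, and in the last Ankrd2 stood over Ankrd1. Actn3 over Actn2 was 5.49, 4.93 and 7.85 on the normal and 17.2, 11.5 and 21.3 on the high phosphate diet. All 3 high phosphate ratios were above all 3 normal phosphate ratios, and the mean log2 ratio went from 2.58 ± 0.35 to 4.01 ± 0.45 (SD, n = 3 per diet), a difference of 1.44 (two-sided exact permutation p = 0.1). Myoz1 over Myoz2 was 11.8, 10.6 and 11.1 on the normal and 30.3, 22.5 and 37.7 on the high phosphate diet. The normal phosphate ratios were nearly equal (log2 mean 3.48 ± 0.08), although both genes differed between those libraries in level, and the difference was 1.4 (exact permutation p = 0.1). Mybpc2 over Mybpc1 was 2.64, 2.29 and 2.30 on the normal and 6.45, 7.92 and 9.73 on the high phosphate diet. The diets again did not overlap, and the difference of 1.72 was the largest of the 4 pairs (exact permutation p = 0.1). Ankrd2 over Ankrd1 was 4.89, 2.56 and 4.10 on the normal and 3.22, 14.4 and 11 on the high phosphate diet. High phosphate replicate 1 fell among the normal phosphate libraries here, and the difference of 1.11 had an exact permutation p of 0.3. With 3 libraries against 3 the smallest possible p is 0.1, and adjusted over the 4 pairs by Benjamini-Hochberg the p values were 0.133 for the first 3 pairs and 0.3 for the last.

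**Figure D2:**
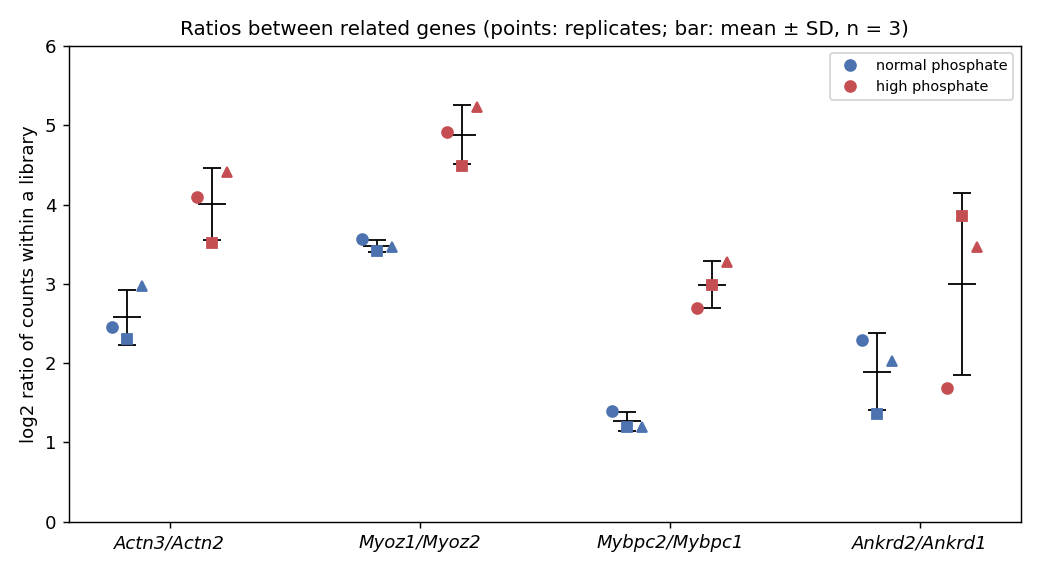
Log2 ratio of the counts of 2 related genes within each library, for 4 pairs, on the normal and high phosphate diets; circles, squares and triangles are replicates 1, 2 and 3 and bars are mean ± SD. The diets are separate for Actn3/Actn2, Myoz1/Myoz2 and Mybpc2/Mybpc1 and overlap for Ankrd2/Ankrd1.

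Compared per length, as CPM per kilobase of annotated exon, the fast forms headed the group on both diets. On the normal phosphate diet the order was Actn3 (1569.3 ± 349), Myoz1 (997 ± 222), Mybpc2 (662 ± 107), Mybpc1 (219 ± 27.9), Actn2 (200 ± 36.8), Ankrd2 (74.2 ± 15.3), Myoz2 (49.1 ± 8.6), Csrp3 (46.8 ± 19.2), Xirp1 (23.6 ± 8.43) and Ankrd1 (8.02 ± 2.54). Libraries of neighbours overlapped for Actn3 and Myoz1, for Mybpc1 and Actn2, and along Myoz2, Csrp3 and Xirp1. On the high phosphate diet Actn3 stood at 4205.2 ± 632 and cleared its neighbour, while Mybpc2 (2363.8 ± 400) and Myoz1 (1946.9 ± 170) overlapped. Mybpc1 (247 ± 92.0) and Actn2 (203 ± 52.7) again overlapped, and so did Actn2 and Ankrd2 (114 ± 40.0). Xirp1 (49.5 ± 14.4) had the seventh place there, ahead of Csrp3 (37.1 ± 15.3) and Myoz2 (37.0 ± 8.13), although the libraries of these 3 genes overlapped. In the deposited FPKM values the lower places differed. Myoz2 (56.6 to 86.9) there lay above Xirp1 (24.3 to 42.8) in all high phosphate libraries. On the normal phosphate diet Myoz2 (125 to 139 FPKM) lay above Ankrd2 (54.3 to 77.9 FPKM). The order of these lower members thus depends on the measure used. Ankrd1 (6.54 ± 5.04) was the lowest on both diets.

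The promoters of Mybpc2, the gene with the largest rise, and of Myoz2, with the lowest fold change (not called), are shown. They stand at the ends of the range of fold changes among the members. Of the 10 genes, 7 have an entry in the RefSeq promoter table of GRCm38.p6, and Actn3, Myoz1 and Xirp1 have none there. Each sequence is the 250 bases before the annotated start, read 5′ to 3′ on the gene's own strand (chr7:44524670-44524919 for Mybpc2 and chr3:123034988-123035237 for Myoz2, both minus strand). The last 28 bases of the Myoz2 stretch belong to an exon in GENCODE M21. Capitals mark matches, on either strand, to 5 muscle promoter motifs: the MEF2 core (CTA and TAG with 4 bases of any kind between them), the MCAT element CATTCC that TEAD factors bind, the E-box CAGCTG, the TATA box TATAAA and the CArG box of serum response factor.
Mybpc2: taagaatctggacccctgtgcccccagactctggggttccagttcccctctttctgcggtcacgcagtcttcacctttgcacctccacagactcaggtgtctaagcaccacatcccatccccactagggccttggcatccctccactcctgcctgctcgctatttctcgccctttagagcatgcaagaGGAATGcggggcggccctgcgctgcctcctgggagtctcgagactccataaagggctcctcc
Myoz2: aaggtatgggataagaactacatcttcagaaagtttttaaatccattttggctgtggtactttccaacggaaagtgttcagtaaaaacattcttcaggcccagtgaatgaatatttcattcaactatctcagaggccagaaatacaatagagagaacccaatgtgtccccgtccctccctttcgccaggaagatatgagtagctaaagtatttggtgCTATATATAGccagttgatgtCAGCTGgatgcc
In Mybpc2 the capitals are an MCAT element on the opposite strand, 62 to 57 bases before the start. In Myoz2 they are a MEF2 core at 33 to 24 bases and an E-box at 12 to 7 bases. In the 250 bases before all 32851 starts of the table, an MCAT match occurred in 12.6%, a MEF2 core in 3.2% and this E-box in 13%. Among the other members the Ankrd1 stretch held 2 MCAT matches, Mybpc1 an E-box and Ankrd2 a TATA box, which 12.4% of all stretches held, and neither Actn2 nor Csrp3 held any of the 5. Exons of any gene in GENCODE M21, on either strand, hold 250 bases of the Ankrd1 stretch, which lies within the span of Ankrd1. They also hold 188 bases of the Mybpc1 stretch, which lies outside Mybpc1, 27 of the Ankrd2 stretch and 28 of the Actn2 stretch. The CArG box, present in 1.47% of all stretches, was matched in 0 of these 7 genes.

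The members differed in how alike their profiles were over the 6 libraries. As the root mean square difference between centred log2 CPM profiles, the most alike members were Actn3 and Mybpc2 (0.22), Myoz1 and Actn3 (0.25), Myoz2 and Actn2 (0.25), and Ankrd2 and Xirp1 (0.29), and the least alike were Ankrd1 and Mybpc2 (1.33). Among 8759 other genes with a mean of at least 10 CPM, predicted genes and pseudogenes left out, the closest to Myoz1 were St3gal5 (0.050) and Ccng1 (0.051). The closest to Myoz2 were Fxyd6 (0.056) and Selenbp1 (0.106), to Actn3 Eepd1 (0.070) and Phkb (0.075), and to Mybpc2 Gpcpd1 (0.105) and Pde4d (0.108). Actn2 came closest to Lmcd1 (0.095) and Abhd18 (0.108), Ankrd2 to Gabarapl1 (0.115) and Cryab (0.137), Mybpc1 to Nqo2 (0.148) and Tmem25 (0.151), and Xirp1 to Fabp3 (0.148) and Hspb1 (0.210). The closest to Csrp3 were Mt2 (0.263) and Ccl9 (0.264), farther off than those of the members above. These are descriptions over 6 libraries, 3 per diet, so the likeness includes the difference between the diets.

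Genes found in all muscle fibres were also higher on the high phosphate diet. The 8 genes Acta1, Ckm, Ttn, Neb, Des, Ryr1, Cacna1s and Pygm all rose, 8 of 8, at a median of 1.18 against -0.016 over all genes. When libraries were scaled to these 8 genes in place of TMM, Mybpc2 (0.68, edgeR adjusted p = 6.08e-05) and Actn3 (0.28, 0.0253) stayed higher, against 0.899% of all genes called higher on that scale, on which 86.3% were called in all and the median of all genes was -1.2. Myoz1 (-0.17, 0.218), Xirp1 (-0.089, 0.805) and Ankrd2 (-0.52, 0.101) were then not called, with their sign turned. Myoz2 (-1.54, 2.66e-06), Csrp3 (-1.53, 0.046), Ankrd1 (-1.60, 0.0405), Actn2 (-1.14, 0.000254) and Mybpc1 (-1.01, 5.83e-05) were called lower, a count of 5 of 10 against 85.4% of all genes called lower. Ttn, Neb and Des also belong to lists given below, so their own values on this scale are partly fixed by the scaling.

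**Figure D3:**
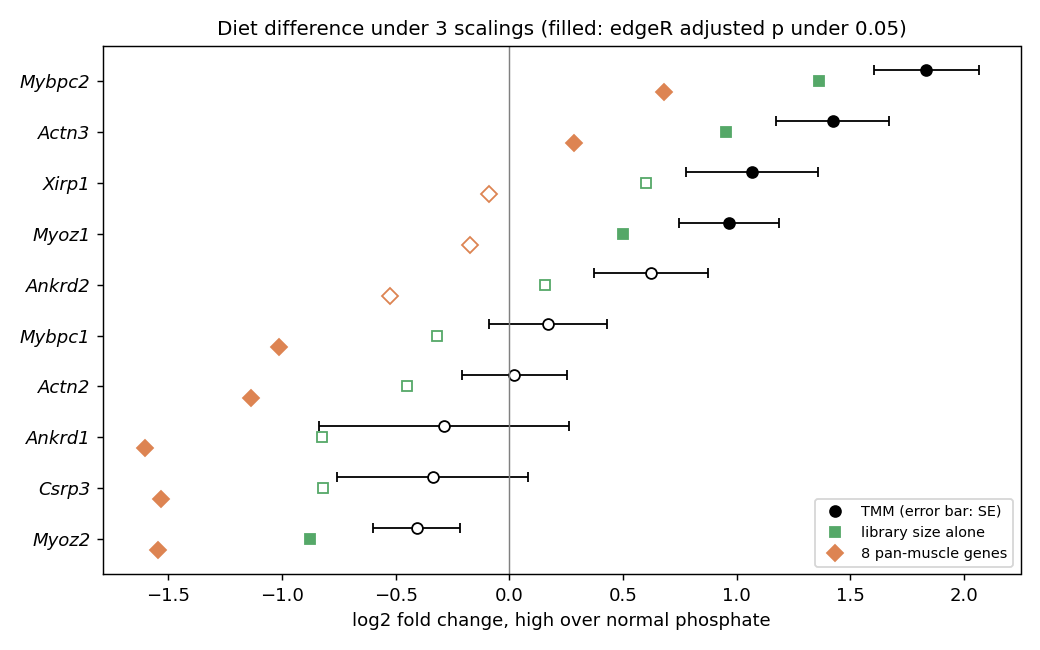
Log2 fold change, high over normal phosphate, of each gene with TMM scaling (circles, with SE), library size alone (squares) and scaling to 8 pan-muscle genes (diamonds); filled symbols have an edgeR adjusted p under 0.05. Mybpc2 and Actn3 are filled and above 0 on all 3 scales, and the other 8 genes change call or sign with the scale.

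With TMM, genes of fast and slow fibres moved in opposite directions in the same libraries. Of 9 fast fibre genes 6 rose and 0 fell, at a median of 0.88, and of 9 slow fibre genes 0 rose and 8 fell, at a median of -1.34. Among those 6, Tnnc2 had a mean of only 2.67 and 5.68 CPM, far below Tnni2 (7687.7 and 14162.1 CPM). Fast fibre genes were 3 higher and 0 lower when scaled by library size (median 0.42), and 1 higher and 4 lower with the pan-muscle genes (-0.24), while all 9 slow fibre genes were called lower on both of those scales (-1.80 and -2.46). With TMM, Actn3, Mybpc2 and Myoz1 (1.42, 1.84 and 0.97) lay above the fast fibre median. The members known from slow fibres, Myoz2 (-0.41), Csrp3 (-0.34), Mybpc1 (0.17) and Ankrd2 (0.62), all lay above the highest value on the slow fibre list, that of Myl3 (-0.54). These distances were not tested.

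Of the other Z-disc genes, 10 rose, 5 fell and 6 were not called, of 21, with a median of 0.57 (0.10 with library size alone, -0.02 on the log2(FPKM + 1) scale and -0.56 with the pan-muscle genes). Flnc, the muscle filamin that binds myozenins, was higher, at 817 ± 137 against 381 ± 23.3 CPM (1.1 ± 0.18, edgeR adjusted p = 0.00141). Mypn, myopalladin, which links nebulin to alpha-actinin, rose by 1.06 ± 0.18, and the actinin-binding LIM protein gene Pdlim3 by 0.89 ± 0.15. Tcap, telethonin, the cap of titin at the Z-disc, went from 1397.1 ± 406 to 2809.8 ± 220 CPM (log2 fold change 1.01 ± 0.24, edgeR adjusted p = 0.00844). The remaining myozenin Myoz3 was at 61.7 ± 16.1 and 91.7 ± 18.5 CPM and not called (0.57 ± 0.22, edgeR adjusted p = 0.056). It passed with high phosphate replicate 2 left out (0.72, edgeR adjusted p = 0.0354), with normal phosphate replicate 3 left out (0.69, 0.045) and with DESeq2 (0.58, adjusted p = 0.0219). The 5 that fell, named after their values were seen, were the non-muscle actinins Actn1 (-0.82 ± 0.16) and Actn4 (-0.51 ± 0.15), the Csrp3 relatives Csrp1 (-0.56 ± 0.13) and Csrp2 (-1.29 ± 0.27), and Pdlim1 (-0.35 ± 0.12). Within the actinin family the fast muscle form Actn3 was called higher and the non-muscle forms Actn1 and Actn4 were called lower with TMM, with library size alone (0.95, -1.30 and -0.99) and with the pan-muscle genes (0.28, -2.01 and -1.70). Actn2 was called, as lower, only on the last of these 3 scales. Csrp1 and Csrp2 were likewise called lower on all 3.

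Of 13 genes of titin and its partners 8 rose, 1 fell and 4 were not called, with a median of 0.82 (0.35 with library size alone, -0.32 with the pan-muscle genes). Ttn itself went from 5606.8 ± 1399.0 to 10600.7 ± 2605.3 CPM (0.92 ± 0.28, edgeR adjusted p = 0.0218). Its call was lost without high phosphate replicate 1 (0.72, edgeR adjusted p = 0.0823) or replicate 3 (0.98, 0.0527) and with library size alone (0.45, 0.0822). Trim54, a muscle ubiquitin ligase associated with microtubules, rose from 93.2 ± 21.1 to 267 ± 10.7 CPM (1.52 ± 0.18, edgeR adjusted p = 0.000501), and it was called higher on the pan-muscle scale too (0.40, 0.0422), the one gene of the 7 related lists that was. The LIM protein genes Fhl3 and Fhl2 moved apart, at 1.26 ± 0.16 and -1.57 ± 0.29. Ankrd23, the third muscle ankyrin repeat gene, was at 124 ± 37.0 and 177 ± 20.6 CPM and not called (0.52 ± 0.22, edgeR adjusted p = 0.077), but it was called with no filter on low counts (0.54, 0.0478) and with DESeq2 (0.53, adjusted p = 0.0364).

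Of the thick filament and M-band genes 2 rose and 0 fell of 4 tested, at a median of 0.82. Scaled by library size 2 were higher and 1 lower (0.32), and with the pan-muscle genes 0 and 1 (-0.40). These were the myomesins Myom1 (1.08 ± 0.23) and Myom2 (1 ± 0.23), which crosslink myosin at the M-band. Mybph, a smaller relative of the myosin-binding proteins C, was at 68.3 ± 9.27 and 106 ± 66.3 CPM (0.63 ± 0.48, edgeR adjusted p = 0.31), and it was called without high phosphate replicate 3 (1.03, edgeR adjusted p = 0.0121). The cardiac form Mybpc3 had 0 to 5 counts per library and was not tested. Of 11 Xin, N-RAP and costamere genes 3 rose, 1 fell and 7 were not called, at a median of -0.09. The count became 2 higher and 7 lower when scaled by library size (median -0.58), 2 and 6 on the FPKM scales, and 0 and 9 with the pan-muscle genes (-1.28). Xirp2, the relative of Xirp1 also called myomaxin, went from 1195.4 ± 265 to 2864.0 ± 480 CPM (log2 fold change 1.26 ± 0.23, edgeR adjusted p = 0.00255), Nrap rose by 1.01 ± 0.19, and Tln2, muscle talin, by 0.60 ± 0.17 (0.13 and not called with library size alone). The adhesion gene Cdh2 fell by 1.45 on the log2 scale from 3.56 ± 1.45 CPM.

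Myozenins hold calcineurin at the Z-disc, and of 12 calcineurin and NFAT genes 6 rose, 4 fell and 2 were not called, at a median of 0.44. Scaled by library size, 1 was called higher and 4 lower, at a median of -0.02, and with the pan-muscle genes 0 and 10, at -0.70. The catalytic subunit Ppp3cb (0.94 ± 0.18) and the regulatory subunit Ppp3r1 (0.69 ± 0.13, edgeR adjusted p = 0.00244; 0.22 and not called with library size alone) rose, and the transcription factor Nfatc4 (-1.02 ± 0.17) fell. Rcan1, a calcineurin inhibitor whose transcription calcineurin raises, was at 107 ± 34.0 and 159 ± 19.4 CPM and not called (0.58 ± 0.22, edgeR adjusted p = 0.055), but it was called without normal phosphate replicate 1 (0.83, 0.0104) and with DESeq2 (0.59, adjusted p = 0.0203). Of 10 genes of thin filament length and capping 6 rose and 1 fell, at a median of 0.60. Scaled by library size 1 was called in each direction (median 0.13), and with the pan-muscle genes 0 higher and 9 lower (-0.56). The pointed-end cap Tmod1 (0.95 ± 0.18) and Klhl40, which stabilizes nebulin and leiomodin (0.67 ± 0.14; 0.20 and not called with library size alone), rose, and the barbed-end capping subunit Capza1 (-0.53 ± 0.12) fell. Of 13 genes of serum response factor, MEF2 and YAP/TEAD, factors that bind motifs of the kinds searched above, 6 rose and 1 fell, at a median of 0.13. Scaled by library size the count was 1 higher and 5 lower (median -0.34), and with the pan-muscle genes 0 and 11 (-1.04). Srf (0.83 ± 0.13), Mef2d (0.71 ± 0.14) and Mef2a (0.56 ± 0.13) rose, of which Mef2d and Mef2a were not called with library size alone (0.24 and 0.088), and Wwtr1, the YAP relative TAZ, fell by 0.70 on the log2 scale.

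**Figure D4:**
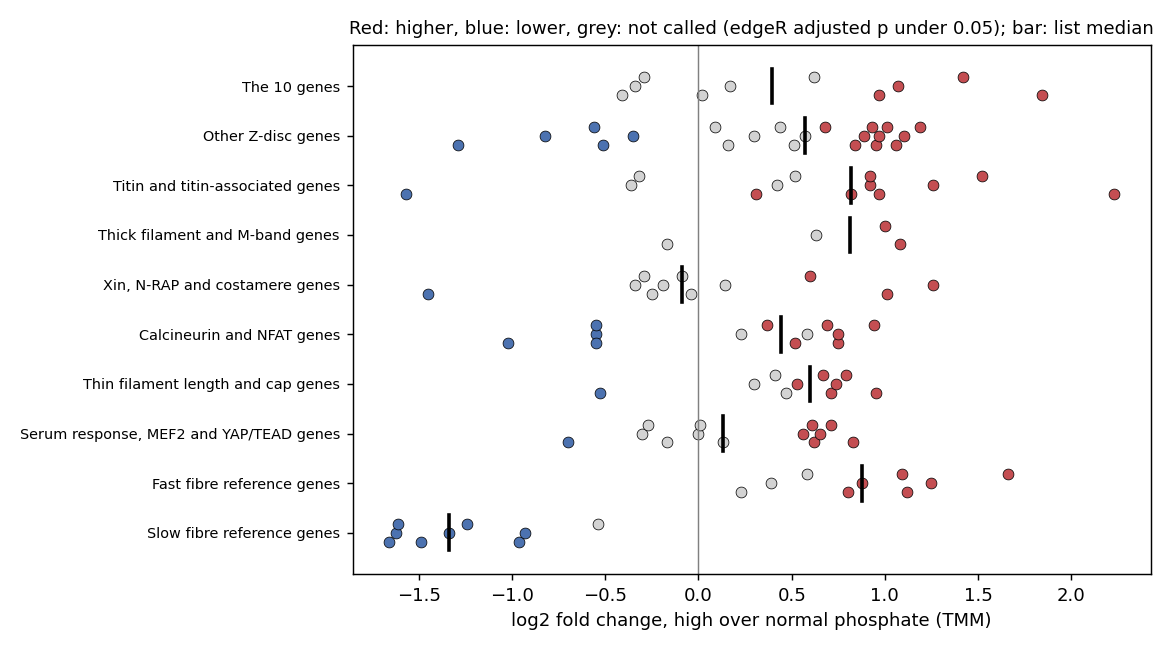
Log2 fold change, high over normal phosphate with TMM, of each tested gene of the 10 genes, 7 related lists and 2 fibre type lists; red is called higher, blue called lower, grey not called, and black bars are list medians. The 9 slow fibre genes all lie below 0, with a median of -1.34, while 6 of 9 fast fibre genes are called higher.

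Markers of several other cell types also differed between the diets. White adipocyte markers fell in 9 of 9 genes (summed level 6601.7 to 7883.7 CPM on the normal and 2813.4 to 4267.3 CPM on the high phosphate diet) and fibroblast markers in 9 of 9 (4699.7 to 10770.0 and 2347.6 to 2610.0 CPM). Car3 made up most of the adipocyte sum (mean 4636.1 and 2778.1 CPM, log2 fold change -0.74), and the median of that list was -2.19. The sum thus mainly follows Car3, and which cells its RNA came from was not tested. Macrophage markers fell in 7 of 8 (883 to 1639.7 and 319 to 470 CPM), and Cd163, named here after its value was seen, was called higher (0.59, edgeR adjusted p = 0.0494). The diets overlapped in Cd163 (normal 25.6 to 36.1, high 33.9 to 61.2 CPM). With library size alone, the pan-muscle genes or limma-voom, 0 macrophage markers were called higher. Endothelial markers fell in 7 of 7 (798 to 955 and 448 to 623 CPM). B cell markers fell in 6 of 6 from a low and uneven level (9.62 to 65.3 and 1.01 to 1.83 CPM), and limma-voom called 3 of these lower. T cell markers fell in 7 of 7 (10.5 to 36.9 and 0.779 to 2.04 CPM). Tendon markers fell in 4 of 7 (563 to 911 and 344 to 479 CPM), smooth muscle and pericyte markers in 1 of 8 (1317.1 to 1422.5 and 865 to 1179 CPM) and Schwann cell markers in 1 of 6 (240 to 301 and 220 to 325 CPM), with 0 called higher in these 3 lists. Scaled by library size these 3 lists had 6, 6 and 1 markers called lower, and with the pan-muscle genes 7, 8 and 6. The part of all these cell types in the differences of the 10 genes was not tested. Cardiac muscle, which also makes Actn2, Myoz2, Csrp3 and Ankrd1, was near absent: Myl7 had a count of 0 in every library, Nppa, Nppb, Gata4 and Nkx2-5 were under the filter, and the 4 markers tested summed to 6.77 to 16.1 and 6.33 to 8.61 CPM. Of 10 markers of regenerating fibres and myoblasts, a state in which Ankrd1, Csrp3 and Xirp1 are known to be high, 5 fell (Myog, Pax7, Mymk, Mymx and Chrng) and 1, Myh8, rose (304 ± 47.5 to 880 ± 236 CPM).

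From library to library, the deposited FPKM values of each member followed its counts closely, except for Mybpc1. The ratio of FPKM to CPM by library size varied by 1.02- to 1.1-fold between libraries in the other 9 genes. For Mybpc1 it was 0.109 in normal phosphate replicate 1 and 0.175 to 0.193 in the other 5 libraries. Normal phosphate replicate 1 was thus the lowest of its diet in FPKM (122, against 212 and 229) but not in counts (1018.8 CPM, against 855 and 1103.2), so the FPKM of Mybpc1 in that library was not used for its level. The tool behind the FPKM values is not given in the sources used here, and the reason was not tested.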

How the data were processed

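Total RNA was extracted from gastrocnemius with TRIzol and sequenced by Illumina protocols, per the labels' protocols. A table of raw counts, whole reads for each Ensembl gene, and a table of FPKM were deposited. The GRCm38 build, featureCounts 1.4.6, HISAT2 2.0.1, DESeq2 1.6.3 and Trim Galore 0.4.1 are named in the submitters' processing notes. Annotation release, strand setting and FPKM tool: not given in the sources used here.

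Libraries were grouped by the sample titles, and none was left out. Counts were fitted with edgeR 4.0.16 (R 4.3.3, TMM, filterByExpr, robust quasi-likelihood, common coefficient of variation 0.161) over 15347 genes with Benjamini-Hochberg adjustment. The fit was also run on simulated counts in which few genes changed, in both directions. That simulation cannot test the scaling, as a far larger part of the genes was called in the data. SE is the log2 fold change divided by the square root of F. Libraries of a diet correlated at 0.981 to 0.989, and their counts differed by more than sampling noise (chi-square over its degrees of freedom was 18.3 or more). Ratios of counts used a pseudocount of 0.5. Coordinates and exon lengths are from GENCODE M21 and promoters from RefSeq. Alternatives were other scalings and filters, each library left out, the replicate number as a block, DESeq2 1.42.0, limma-voom (limma 3.58.1) and limma on log2(FPKM + 1) or log2(FPKM + 0.1). Members and lists were chosen with earlier results of these data known. Related genes named were up to 3 called genes of smallest p per list, 8 genes named whatever their result (Rcan1, Tcap, Ttn, Xirp2, Ankrd23, Myoz3, Mybpc3 and Mybph) and, outside this rule, Tln2, Wwtr1, the 5 falling Z-disc genes and the called regeneration markers, which were named after their values were seen. The genes closest in profile to Ankrd1 are not reported here.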

Additional observations from a re-analysis of the deposited data

How the results depend on the processing

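The count of 4 members called higher stayed at 3 to 5 under every alternative but the pan-muscle scaling, which left 2. Of all genes, 0.899% were called higher with the pan-muscle scaling. Under the other alternatives that share ran from 4.68% with log2(FPKM + 1) to 24.3% with at least 1 CPM in 3 libraries. The count of 0 called lower became 1 with library size alone (51.4% of all genes) and 1 on either FPKM scale (36.8% and 38.9%). It became 5 with the pan-muscle scaling (85.4%), and 0 to 1 with a library left out (21.1% to 25.8%). Over all genes, 13240 were called with the pan-muscle scaling against 7563 with TMM. The split of 3528 higher and 4035 lower became 718 and 5655 for log2(FPKM + 1), and 878 and 7886 when scaled by library size. Mybpc2 and Actn3 kept direction and call under all 17 alternatives. Signs that turned with the pan-muscle scaling, which centres on genes that rose, were those of Myoz1 (-0.17), Ankrd2 (-0.52), Actn2 (-1.14), Mybpc1 (-1.01), Xirp1 (-0.089), Myoz3 (-0.56), Tcap (-0.11), Pdlim3 (-0.28), Flnc (-0.081), Mypn (-0.086), Ttn (-0.23), Ankrd23 (-0.60), Mybph (-0.62), Myom1 (-0.072), Myom2 (-0.17), Nrap (-0.12), Ppp3cb (-0.19), Ppp3r1 (-0.46), Rcan1 (-0.59), Tmod1 (-0.18), Klhl40 (-0.49), Srf (-0.32), Mef2a (-0.59) and Mef2d (-0.44). Actn2, at 0.02 with TMM, turned to -0.45 with library size alone, -0.002 with limma-voom, -0.45 and -0.45 on the FPKM scales, and ran from -0.13 to 0.23 with a library left out. Mybpc1 turned to -0.32 with library size alone and -0.14 on both FPKM scales, which include the value of normal phosphate replicate 1 that was out of line with its counts, and ran from -0.16 to 0.39 with a library left out, and Ankrd1 ran from -1.12 to 0.073. Mybph turned to -0.03 and -0.033 on the FPKM scales. The cause of these turns was not tested, and the pan-muscle value of Ttn is partly fixed, as Ttn is among the scaling genes. With a library left out, the ratio differences ran from 1.24 to 1.68 for Actn3/Actn2, 1.23 to 1.6 for Myoz1/Myoz2, 1.57 to 1.87 for Mybpc2/Mybpc1 and 0.68 to 1.76 for Ankrd2/Ankrd1.

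No pairing by equal replicate numbers was seen over the genes tested: deviations of same-numbered libraries correlated at -0.021, 0.022 and 0.019. These correlations cannot show whether a pairing touches only some genes. With the replicate number as a block, 5 members were called higher, Ankrd2 being added (0.59, edgeR adjusted p = 0.0417). Of all genes 7328 (47.7%) were then called, 22.2% higher and 25.5% lower. Among the related genes named, Myoz3 (0.59, 0.00611), Ankrd23 (0.56, 0.0213) and Rcan1 (0.62, 0.0238) also passed under the block. A paired exact test of 3 differences cannot go below p = 0.25, which the first 3 ratios reached. Ankrd1 had the fewest counts of the members, 165 to 882 per library, and its libraries of a diet varied by 31.7% and 77.0% (coefficient of variation).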
